A study of Homo sapiens with 16 samples.

Results

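The 10 genes described here are SNAI1, SNAI2, SNAI3, TWIST1, TWIST2, ZEB1, ZEB2, CDH1, CDH2 and VIM. They were taken by symbol from a table of 35993 genes, and all 10 were among the 21297 genes with enough counts to be tested. RNA was sequenced from the established human lines 253J, J82, RT112 and TCCSUP, all from bladder cancer and labelled wild type (WT), after 48 h with CM-1758, a histone deacetylase inhibitor, or with 0.01% DMSO as the vehicle control. The DMSO control is as the labels give it, while figure legends of the study call the control cells untreated. TCCSUP was grown in EMEM and the other lines in DMEM. The dose of CM-1758 was the IC50 found for that line and so differed between lines, and treated cells were compared with control cells within a line. There were 16 libraries, 2 from independent experiments for each of the 8 groups, with total counts of 22506431 to 32537104. The comparisons ask at what level each line expressed these genes before treatment and how that level differed after CM-1758.

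In the epithelial-mesenchymal transition (EMT), epithelial cells loosen their junctions and take up a motile, fibroblast-like state. SNAIL (SNAI), TWIST and ZEB proteins are DNA-binding factors known to repress the E-cadherin gene CDH1 and to favour mesenchymal genes, among them N-cadherin (CDH2) and the intermediate filament vimentin (VIM). The exchange of E-cadherin for N-cadherin is called the cadherin switch, and SNAIL and ZEB proteins are known to recruit histone deacetylases as part of their repressor complexes.

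In the control libraries RT112 had the epithelial pattern of the group. Its CDH1 level was 467 ± 8.49 CPM (normalized counts relative to library depth, mean ± SD, n = 2), whereas CDH2 was at 4.69 ± 0.211 CPM and VIM at 0.444 ± 0.389 CPM. J82 had the opposite pattern, with CDH1 at 3.82 ± 0.617 CPM and CDH2 at 525 ± 15.2 CPM. 253J expressed both cadherins, CDH1 at 181 ± 14.5 CPM and CDH2 at 534 ± 7.12 CPM, together with the highest VIM level of the 4 lines, 1499 ± 271 CPM. TCCSUP had CDH2 at 584 ± 74.3 CPM and CDH1 at 17.1 ± 4.97 CPM, but VIM at only 3.85 ± 0.145 CPM, so a high N-cadherin level went without a high vimentin level in this line.

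**Figure D1:**
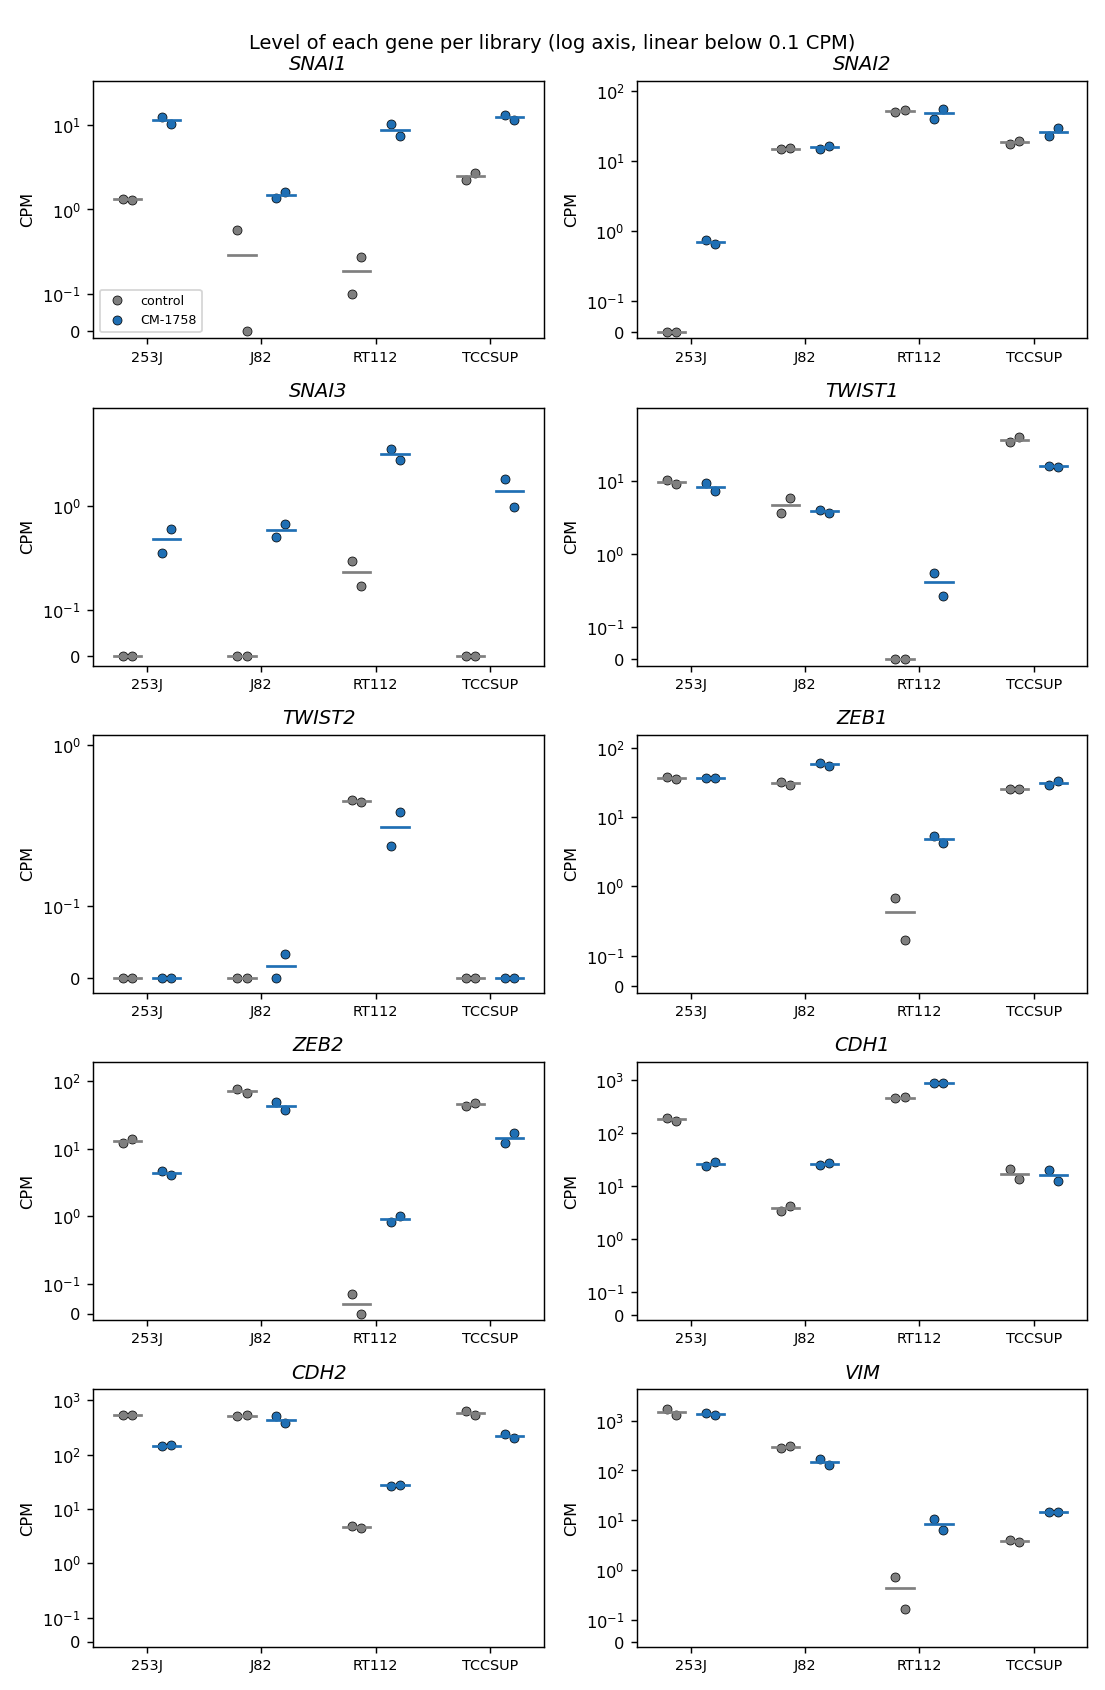
Level in CPM (log axis, linear below 0.1 CPM) of the 10 genes in each of the 16 libraries, by cell line, with control in grey and CM-1758 in blue. Points are libraries and bars are group means, and the CDH2 panel shows control means of 525 to 584 CPM in 3 lines against 4.69 CPM in RT112.

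All 10 genes differed in control level between the lines in the F test of edgeR (quasi-likelihood model, p adjusted by Benjamini-Hochberg, from 1.82e-12 for VIM to 0.00172 for SNAI3), where 78.8% of the tested genes passed. For TWIST2 this call was lost with the replicate block (adjusted p = 0.0708, edgeR) and with DESeq2 (adjusted p = 0.118). TWIST2 passed the count filter only through RT112, the line where it was highest, so its difference was favoured by the filter. The SNAI3 difference rests on 9 and 5 counts in the RT112 controls against 0 in all other controls. Of the 60 combinations of gene and pair of lines, 46 passed. The background per pair was 53.1% for 253J and J82, 54.3% for 253J and RT112, 53.1% for 253J and TCCSUP, 52.1% for J82 and RT112, 48.0% for J82 and TCCSUP and 51.5% for RT112 and TCCSUP. TWIST1, ZEB2, CDH1 and VIM differed in all 6 pairs, 4 of 10 genes against 7.06% of the tested genes. CDH1 therefore had a complete order, RT112 above 253J, 253J above TCCSUP and TCCSUP above J82. VIM was ordered 253J, J82, TCCSUP and RT112. CDH2 did not differ beyond its spread among TCCSUP, 253J and J82 (adjusted p = 0.449 to 0.969, edgeR), while RT112 stood below each of them, 124-fold below TCCSUP.

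Among the transcription factors, ZEB2 was highest in J82 (72.2 ± 6.03 CPM), followed by TCCSUP (45.5 ± 2.52 CPM) and 253J (13.2 ± 1.29 CPM), and RT112 had 2 counts in 1 control library and 0 in the other. ZEB1 was at 25.7 to 36.3 CPM in these 3 lines and at 0.428 ± 0.366 CPM in RT112. In 253J and J82 ZEB1 did not differ (adjusted p = 0.311, edgeR), nor in J82 and TCCSUP (adjusted p = 0.332, edgeR), while 253J stood 1.41-fold above TCCSUP (adjusted p = 0.0458, edgeR). TWIST1 was highest in TCCSUP (36.9 ± 4.12 CPM) and had 0 counts in the RT112 controls, at least 370-fold lower against a floor of 3 counts per library. SNAI2 ran the other way, with its highest control level in RT112 (51.7 ± 2.46 CPM) and 0 counts in 253J, at least 463-fold lower than in RT112. J82 and TCCSUP lay between, at 14.9 ± 0.274 and 18.3 ± 1.03 CPM, and did not differ from each other (adjusted p = 0.186, edgeR). SNAI1 was low throughout, from 0.185 ± 0.122 CPM in RT112 to 2.47 ± 0.300 CPM in TCCSUP.

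The urothelial and epithelial markers bear on the labelled cell type. KRT18, a keratin of simple epithelia, was detected in all control groups, at 855 CPM in RT112, 969 CPM in TCCSUP, 1845 CPM in J82 and 2327 CPM in 253J. The uroplakins UPK2 and UPK3A, membrane proteins of differentiated urothelium, had 0 counts in the controls of 253J, J82 and TCCSUP, and UPK3A also in RT112. UPK1B was at 1408 CPM and the basal keratin KRT5 at 277 CPM in the RT112 controls, with KRT5 at 0 counts in 253J and J82 and at 0.191 CPM in TCCSUP. The basal factor TP63 was at 136 and 133 CPM in the RT112 controls and at or under 1.11 CPM in the others. KRT7, a keratin of simple and urothelial epithelia, was as high in the J82 controls (1425 and 1991 CPM) as in those of RT112 (1765 and 1926 CPM), against 4.53 to 6.17 CPM in 253J and TCCSUP. The rest of this marker list is given as mean log2 CPM over all 16 libraries, treated ones included. It was 9.20 for KRT19, 9.12 for KRT8, 5.49 for PPARG, 2.53 for FOXA1 and 1.67 for GATA3. KRT20 (-0.12) and UPK1A (-2.19) were lower.

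With CM-1758 the response of the 10 genes depended on the line. In RT112, 8 rose and 0 fell (adjusted p under 0.05 in the quasi-likelihood test of edgeR, Benjamini-Hochberg), where 27.4% of the tested genes rose and 20.2% fell. SNAI2 and TWIST2 were the genes not called there. In 253J, 3 rose and 3 fell, against 28.8% and 22.4% of the tested genes. In J82, 4 rose and 2 fell, against 24.0% and 18.5%, and in TCCSUP, 4 rose and 3 fell, against 32.0% and 22.1%. Counted by libraries alone, the treated and control CPM did not overlap and were higher for 3 and lower for 3 genes in 253J (40.9% and 32.1% of the tested genes), 4 and 3 in J82 (34.8% and 27.9%), 8 and 1 in RT112 (41.8% and 32.5%) and 5 and 3 in TCCSUP (45.4% and 33.1%). Past a log2 fold change of 2 in size and an adjusted p under 0.01 (edgeR), RT112 kept 7 higher and 0 lower genes against 11.4% and 1.39% of the tested genes. By that limit 253J had 3 higher and 1 lower (9.43% and 3.50%), J82 3 and 0 (8.81% and 1.24%) and TCCSUP 2 and 0 (14.2% and 3.31%). The median log2 fold change of the 10 genes was 3.59 in RT112 (2.99 with the fold of TWIST1, which had 0 control counts, at its lower bound), -0.07 in 253J, 0.49 in J82 (0.03 with SNAI3 at its bound and TWIST2, which had 0 control counts and 1 treated count, at 0) and 0.13 in TCCSUP. Over all tested genes it was 0.12 in RT112, 0.10 in 253J, 0.05 in J82 and 0.20 in TCCSUP. These are bulk RNA samples, in which fewer cells of a kind and less RNA per cell cannot be told apart.

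SNAI1 and SNAI3 rose in all 4 lines, 2 of 10 genes against 6.69% of the tested genes, and 0 of 10 fell in all 4, against 6.01%. SNAI3 had at most 9 counts in any control library and passed the count filter only through treated libraries. The filter thus favoured a rise of SNAI3, and its part in that count is no independent support. TWIST1, ZEB2, CDH1, CDH2 and VIM rose in some lines and fell in others, 5 of 10 genes against 12.9%. A test of the difference in response between the lines (F test over the 4 responses, edgeR) passed for 8 of the 10 genes, where 51.9% of the tested genes passed. For SNAI1 (adjusted p = 0.0166, edgeR) the call was lost with the replicate block (0.0543) and without RT112 control replicate 1 (0.111) or RT112 CM-1758 replicate 1 (0.0523). SNAI3 (adjusted p = 0.0639, edgeR) and TWIST2 (adjusted p = 0.798, edgeR) missed it. Between pairs of lines, 8 of 10 responses differed for 253J and RT112 (30.0% of the tested genes), 7 for J82 and RT112 (22.2%) and 7 for RT112 and TCCSUP (27.5%). Pairs without RT112 differed in fewer of the 10, with 5 for 253J and J82 (30.0%), 4 for 253J and TCCSUP (28.6%) and 4 for J82 and TCCSUP (22.2%).

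**Figure D2:**
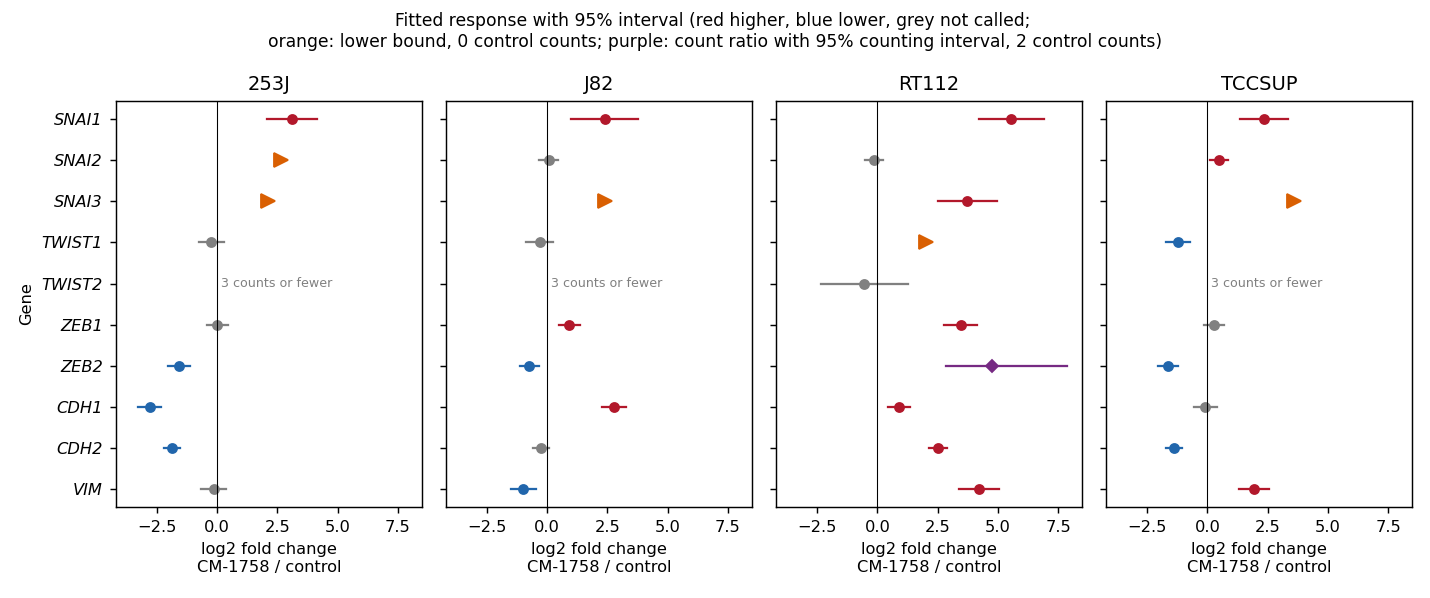
Log2 fold change of CM-1758 over control in each cell line, with points and bars for the edgeR estimate and its 95% interval, red where higher, blue where lower and grey where not called. Orange triangles are lower bounds for genes with 0 control counts, the purple diamond is the count ratio of ZEB2 in RT112 with its counting interval, and 8 genes lie to the right of 0 in RT112.

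SNAI1, the founding SNAIL factor, had its largest response in RT112. There the control libraries held 0.0981 and 0.271 CPM and the treated libraries 10.3 and 7.44 CPM (log2 fold change 5.56, SE 0.62, adjusted p = 5.66e-06, edgeR). These RT112 controls held 3 and 8 counts, so the size of that fold rests on few and uneven counts. In 253J SNAI1 went from 1.34 and 1.302 CPM to 12.5 and 10.4 CPM (3.11, SE 0.49). The treated libraries lay above the control libraries in these lines and also in TCCSUP, where 2.26 and 2.68 CPM changed to 13.4 and 11.4 CPM (2.33, SE 0.46). In J82, whose treated level was the lowest of the 4 lines, SNAI1 had 0.570 and 0 CPM in control and 1.36 and 1.59 CPM after treatment (2.38, SE 0.64, adjusted p = 0.00761, edgeR). That value rests on uneven controls, 15 counts in replicate 1 and 0 in replicate 3, and leaving out J82 control replicate 1, which leaves 0 control counts, gave 8.34, a fitted value and no bound, while leaving out control replicate 3 gave 1.37. Fitted to J82 alone, SNAI1 missed the threshold (adjusted p = 0.0800, edgeR). The response in RT112 was larger than in 253J by 2.45 (SE 0.82, adjusted p = 0.0352, edgeR), than in J82 by 3.18 (SE 1.00, adjusted p = 0.0329, edgeR) and than in TCCSUP by 3.23 (SE 0.80, adjusted p = 0.00695, edgeR).

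SNAI2 encodes SLUG, the second SNAIL factor. In 253J it had 0 counts in both controls and 19 counts in each treated library (0.753 and 0.641 CPM), at least 6.23-fold higher, although the level reached was still the lowest of the 4 lines. TCCSUP showed a small rise, from 17.5 and 19.0 CPM to 22.2 and 29.3 CPM (log2 fold change 0.50, SE 0.17, adjusted p = 0.0271, edgeR). This call was lost without TCCSUP control replicate 1, control replicate 2 or CM-1758 replicate 2, with 0.29 in the last case. J82 had 14.7 and 15.1 CPM in control and 14.9 and 15.98 CPM with CM-1758, and RT112 49.99 and 53.5 against 39.8 and 54.7 CPM. In these 2 lines the groups overlapped, and the 95% intervals of the log2 fold change were -0.32 to 0.44 in J82 and -0.49 to 0.23 in RT112.

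SNAI3, the third and least studied SNAIL factor, was at or near 0 before treatment in every line and was detected in every treated library. In RT112 the level was 0.294 and 0.169 CPM in control and 3.52 and 2.78 CPM with CM-1758 (log2 fold change 3.73, SE 0.56, adjusted p = 0.000194, edgeR). The other lines had 0 control counts. TCCSUP reached 1.83 and 0.984 CPM, at least 12.1-fold higher, J82 0.501 and 0.677 CPM, at least 5.28-fold higher, and 253J 0.357 and 0.607 CPM, at least 4.31-fold higher. On a scale of CPM per kb of exon model, on which levels of different genes can be compared, SNAI1 made up 0.279% and 0.722% of the summed SNAI level in the RT112 controls and 24.8% and 15.5% after treatment. In TCCSUP its share went from 15.6% and 16.9% to 43.8% and 34.9%, whereas in 253J it was 100% in control and 93.5% and 90.9% with CM-1758. SNAI2 was thus the main SNAIL transcript of control RT112, J82 and TCCSUP, and SNAI1 that of 253J. The table also lists SNAI1P1, a pseudogene copy of SNAI1, with 0 to 14 counts per library, and how reads were split between the copies is not given.

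TWIST1 and TWIST2 encode basic helix-loop-helix factors that bind DNA in pairs. TWIST1 fell in TCCSUP, its line of highest expression, from 34.0 and 39.9 CPM to 15.98 and 15.7 CPM (log2 fold change -1.22, SE 0.24, adjusted p = 0.000671, edgeR). RT112 had 0 control counts and gained 14 and 7 counts under CM-1758 (0.548 and 0.267 CPM), at least 4.08-fold higher. The treated RT112 level remained far below that of the other lines. In 253J (10.4 and 9.08 against 9.31 and 7.29 CPM) and in J82 (3.57 and 5.82 against 4.01 and 3.62 CPM) the groups overlapped. TWIST2 was at 0 counts in each 253J and TCCSUP library, with 1 count in 1 treated J82 library. RT112 alone held a measurable level, 0.458 and 0.441 CPM in control and 0.235 and 0.381 CPM with CM-1758 (log2 fold change -0.54, 95% interval -2.35 to 1.28, adjusted p = 0.634, edgeR). A count of 0 allows up to 3 counts per library, or 0.0981 to 0.119 CPM at these depths, counting error only.

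ZEB1 and ZEB2 encode zinc-finger homeobox factors and are the best known targets of the miR-200 family and miR-205, microRNAs that epithelial cells express at high levels. The mature forms made from the host transcripts MIR200CHG and MIR205HG are shown because the host transcripts were counted in these libraries. They are RefSeq sequences (GRCh38.p14), with the seed, bases 2 to 8, in capitals.
hsa-miR-200c-3p: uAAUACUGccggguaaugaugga
hsa-miR-141-3p: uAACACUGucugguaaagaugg
hsa-miR-205-5p: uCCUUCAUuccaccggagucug
The 3′ UTR of ZEB1 (2549 bases in the longest GENCODE v29 form) held 6 matches to CAGTATT, the site for the miR-200b/c seed, 3 to CAGTGTT, the site for the miR-141 seed, and 1 to ATGAAGG, the site for the miR-205 seed, searched on the transcript strand. That of ZEB2 (5370 bases) held 5, 4 and 0. Over the longest 3′ UTR of each of 19113 genes, the density was 0.118, 0.135 and 0.0782 matches per kb, against 2.35, 1.18 and 0.392 per kb in ZEB1 and 0.931, 0.745 and 0 in ZEB2. A match of letters is a description and not a test of binding. Of the genes, 16% held a match to CAGTATT, 18.2% one to CAGTGTT and 11.6% one to ATGAAGG. The match nearest the stop codon of each gene and seed is shown with its flanks, the seed match in capitals (GRCh38, for ZEB1 on the plus strand at chr10:31527621-31527646, chr10:31528034-31528059 and chr10:31528070-31528095, for ZEB2 on the minus strand at chr2:144389046-144389071 and chr2:144389230-144389255).
ZEB1 site for miR-200b/c: gttttatcttatCAGTATTatcactc
ZEB1 site for miR-141: aatcatcagaatCAGTGTTtgtgatt
ZEB1 site for miR-205: atgtggtaacatATGAAGGatatgac
ZEB2 site for miR-200b/c: actaccatacatCAGTATTtttatta
ZEB2 site for miR-141: aaaaattttgtaCAGTGTTaaggcct

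ZEB1 rose in RT112 from 0.687 and 0.169 CPM to 5.40 and 4.16 CPM (log2 fold change 3.45, SE 0.32, adjusted p = 9.07e-07, edgeR) and in J82 from 31.7 and 29.3 CPM to 60.6 and 54.8 CPM (0.92, SE 0.20, adjusted p = 0.00163, edgeR). The RT112 controls held 21 and 5 counts of ZEB1, so the size of its fold there depends on uneven controls. ZEB1 was not called in 253J, where the groups overlapped (37.5 and 35.1 against 37.0 and 36.5 CPM). TCCSUP had 25.6 and 25.7 CPM in control and 28.8 and 32.7 CPM with CM-1758 (0.26, adjusted p = 0.284, edgeR). ZEB2 fell in each of the lines that expressed it. The fall was largest in TCCSUP, from 43.7 and 47.3 CPM to 12.2 and 17.1 CPM (-1.63, SE 0.20, adjusted p = 8.65e-06, edgeR), and nearly as large in 253J, from 12.3 and 14.1 CPM to 4.67 and 4.12 CPM (-1.59, SE 0.22). In J82 it went from 76.5 and 67.9 CPM to 49.7 and 36.9 CPM (-0.74, SE 0.19, adjusted p = 0.00591, edgeR). Without J82 CM-1758 replicate 3 the J82 value was -0.54 and not called (adjusted p = 0.0764, edgeR). In RT112, ZEB2 rose from 2 and 0 counts to 21 and 26 counts, a ratio of 27.3 with an exact 95% counting interval of 7.14 to 232. The level reached, 0.907 ± 0.120 CPM, was still the lowest of the 4 lines. Per kb, ZEB1 made up 46.2% and 47.3% of the summed ZEB level in J82 controls and 71.7% and 75.5% after treatment, and in TCCSUP 54.9% and 53.0% before and 83.02% and 79.9% after. ZEB2P1, a pseudogene copy of ZEB2, had 0 to 13 counts per library.

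The microRNA host transcripts were nearly confined to RT112 among the controls. MIR200CHG was at 7.03 and 6.91 CPM in the RT112 controls and at 1.80 and 2.94 CPM with CM-1758 (log2 fold change -1.55, adjusted p = 0.0173, edgeR). MIR205HG fell from 103 and 100.8 CPM to 20.2 and 20.6 CPM (-2.32, adjusted p = 4.84e-05, edgeR). Both had 0 counts in every J82 and TCCSUP library. In 253J, MIR205HG rose from 0.109 and 0 CPM to 2.81 and 1.28 CPM, a ratio of 35.6 with an exact 95% counting interval of 11.9 to 175, and ZEB1 was not called there. The fall of the hosts in RT112 and the rise of ZEB1 and ZEB2 in that line stand side by side, and a link between them was not tested. Mature microRNAs were not measured in these libraries.

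**Figure D3:**
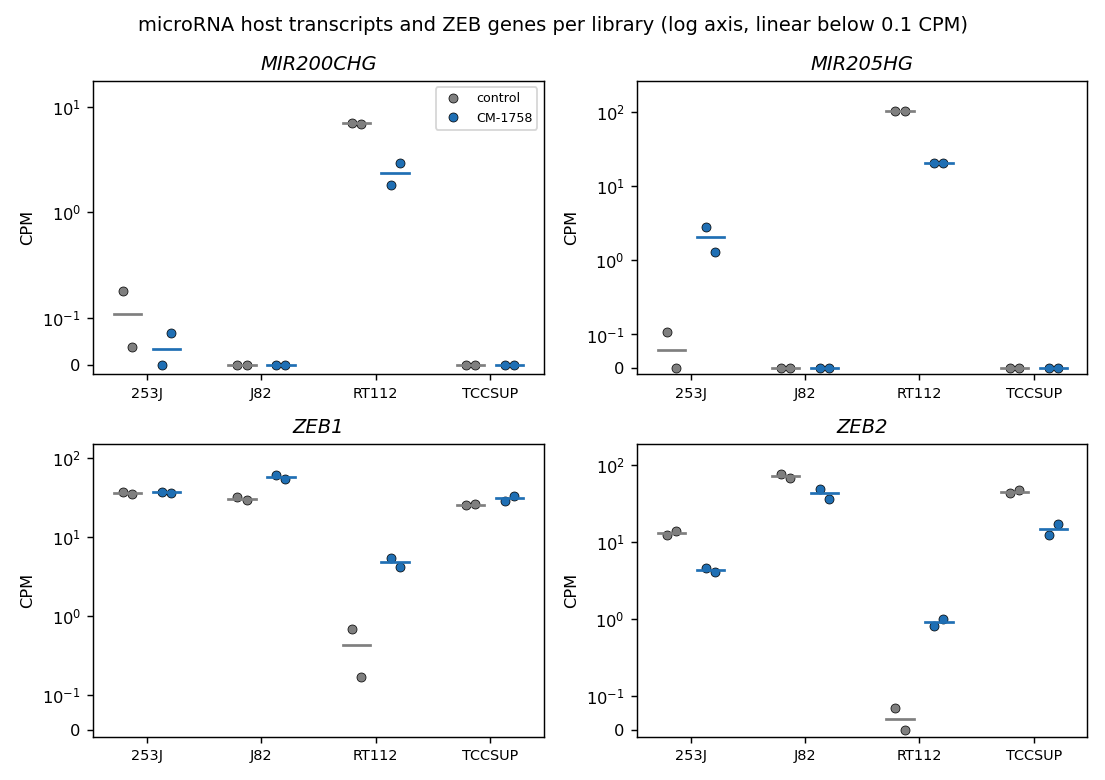
Level in CPM (log axis, linear below 0.1 CPM) of the microRNA host transcripts MIR200CHG and MIR205HG and of ZEB1 and ZEB2 in each library, by cell line, with control in grey and CM-1758 in blue. In RT112 the hosts moved from means of 6.97 and 102 CPM to 2.37 and 20.4 CPM, while ZEB1 went from 0.428 to 4.78 CPM.

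Antisense transcripts of several of these genes were counted too, and with the hosts 5 of 6 were tested. Of these, 4 rose in 253J (28.8% of all tested genes), 3 in RT112 (27.4%), 3 in TCCSUP (32.0%) and 1 in J82 (24.0%). In RT112 2 fell (20.2% of all tested genes) and in J82 1 fell (18.5%), and both counts in J82 lay near their shares. ZEB1-AS1, which starts beside ZEB1 on the other strand, rose in all 4 lines, from 2.65 and 1.56 CPM to 8.88 and 7.44 CPM in RT112 (log2 fold change 1.95, adjusted p = 7.79e-05, edgeR) and by 0.85 (adjusted p = 0.0190, edgeR) to 1.37 (adjusted p = 0.00146, edgeR) in the others. ZEB1 itself was called in only 2 of these lines. VIM-AS1 rose in 253J, RT112 and TCCSUP and fell in J82 (log2 fold change -0.86, adjusted p = 0.0142, edgeR), from 16.6 and 18.6 CPM to 10.8 and 8.57 CPM. SNAI3-AS1 rose in 253J, RT112 and TCCSUP, by 0.96 to 1.17, and was not called in J82. ZEB2-AS1 was too low to be tested. The use of strand in the counting is not given in the sources used here, so reads of a gene and its antisense partner cannot be told apart.

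CDH1, which encodes the E-cadherin of epithelial adherens junctions, moved in opposite directions in 253J and J82. In 253J it fell from 191 and 171 CPM to 23.4 and 28.8 CPM (log2 fold change -2.80, SE 0.22, adjusted p = 1.67e-07, edgeR). In J82 it rose from 3.38 and 4.25 CPM to 25.1 and 27.2 CPM (2.77, SE 0.24, adjusted p = 6.36e-07, edgeR). The treated levels of these 2 lines thus met at 26.1 ± 3.78 and 26.1 ± 1.45 CPM, from control levels 47.4-fold apart. RT112, already highest, went from 461 and 473 CPM to 875 and 872 CPM (0.90, SE 0.21, adjusted p = 0.00227, edgeR). TCCSUP had 20.7 and 13.6 CPM in control and 19.8 and 12.5 CPM with CM-1758, with overlapping groups and a 95% interval of the log2 fold change of -0.55 to 0.38. The responses of CDH1 differed in all 6 pairs of lines, by 5.57 between J82 and 253J (SE 0.33, adjusted p = 3.66e-08, edgeR) and by 0.99 between RT112 and TCCSUP (SE 0.30, adjusted p = 0.0229, edgeR), the largest and the smallest.

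CDH2, the N-cadherin of nerve and mesenchymal cells, fell in 253J and TCCSUP and rose in RT112. The 253J libraries held 539.5 and 529 CPM in control and 145 and 150.1 CPM with CM-1758 (log2 fold change -1.86, SE 0.16, adjusted p = 2.87e-07, edgeR), and the TCCSUP libraries 636 and 531 against 243 and 203 CPM (-1.39, SE 0.16, adjusted p = 3.98e-06, edgeR). In RT112 the level went from 4.84 and 4.54 CPM to 26.6 and 27.6 CPM (2.53, SE 0.18, adjusted p = 5.95e-08, edgeR). J82 kept most of its level, 514 and 536 CPM in control and 505 and 380.2 CPM with CM-1758 (-0.25, SE 0.15, adjusted p = 0.217, edgeR), although both treated libraries lay below the controls. After treatment J82 had the highest CDH2 mean of the 4 lines, 442 ± 88.1 CPM.

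The balance of the 2 cadherins was read as the log2 ratio of CDH1 to CDH2 per kb of exon model, given as a description. It was 6.41 and 6.54 in the RT112 controls and 4.88 and 4.82 with CM-1758, as CDH2 rose more than CDH1. E-cadherin still led there, 28.8-fold above N-cadherin per kb. In J82 the ratio went from -7.41 and -7.14 to -4.49 and -3.97, an 8.24-fold shift toward CDH1, and in TCCSUP from -5.11 and -5.45 to -3.78 and -4.18, a 2.45-fold shift the same way. TCCSUP made its shift by a lower CDH2 level and J82 by a higher CDH1 level. In 253J both cadherins fell and the ratio went from -1.66 and -1.79 to -2.79 and -2.55, a 1.92-fold shift toward CDH2. In every library CDH1 led in RT112 and CDH2 led in the other lines, before and after treatment, and the treated and control libraries of a line did not overlap in this ratio.

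**Figure D4:**
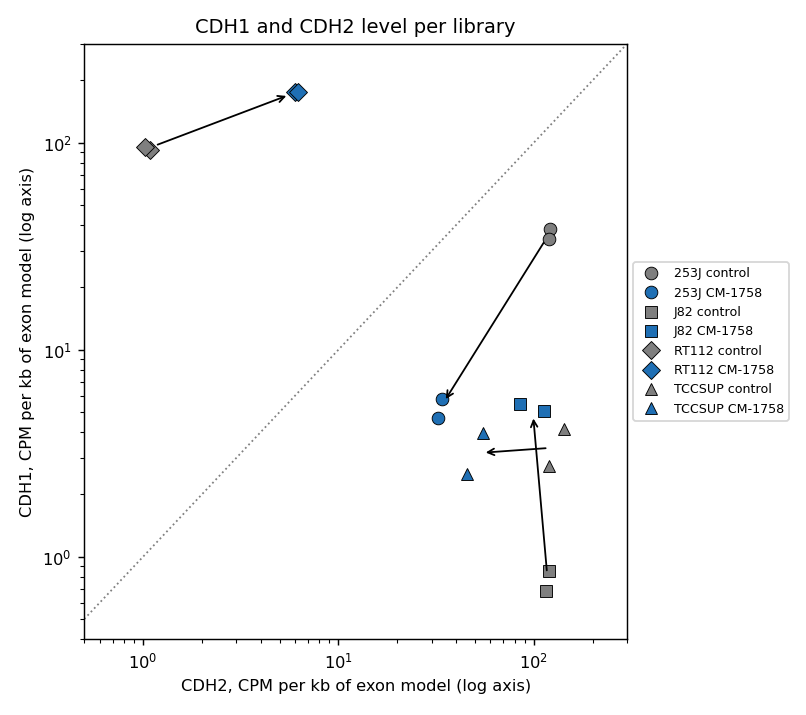
Level of CDH1 against CDH2 in CPM per kb of exon model (log axes) in each library, by cell line (marker shape) and treatment (grey control, blue CM-1758). Arrows join the geometric means of control and treated libraries and the dotted line marks equal levels, with RT112 alone above it, 89.0-fold in control and 28.8-fold with CM-1758.

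VIM, the vimentin gene, spanned the widest control range of the 10 genes by the means of lines with counts, from 0.444 CPM in RT112 to 1499 CPM in 253J. Its lowest lines rose. RT112 went from 0.719 and 0.169 CPM to 10.6 and 6.37 CPM (log2 fold change 4.23, SE 0.39, adjusted p = 8.05e-07, edgeR) and TCCSUP from 3.96 and 3.75 CPM to 14.5 and 14.8 CPM (1.93, SE 0.29, adjusted p = 6.00e-05, edgeR). The RT112 controls held 22 and 5 counts of VIM, so the size of the RT112 fold rests on few and uneven counts. J82 fell from 279 and 314 CPM to 168 and 131 CPM (-0.98, SE 0.25, adjusted p = 0.00511, edgeR). In 253J the groups overlapped (1690.4 and 1307 CPM against 1429.6 and 1286 CPM, 95% interval of the log2 fold change -0.67 to 0.38). The order of the lines was the same after treatment as before, with the range of their means narrowed from 3373-fold to 160-fold. The size of the control range depends on the uneven RT112 controls. Of the 10 genes, 5 matched the RefSeq promoter table (TWIST2, ZEB1, ZEB2, CDH2 and VIM). The 250 bases before the VIM start are shown because VIM had the widest range between the lines, at chr10:17227991-17228240 of GRCh38.p14 on the plus strand, a build other than the one the counts were made with.
VIM promoter: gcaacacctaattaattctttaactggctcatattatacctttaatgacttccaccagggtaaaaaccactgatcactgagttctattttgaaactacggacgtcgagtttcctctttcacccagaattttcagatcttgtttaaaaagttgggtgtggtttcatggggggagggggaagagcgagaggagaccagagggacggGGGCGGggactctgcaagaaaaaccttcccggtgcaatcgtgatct
The capitals mark the 1 match to GGGCGG, a GC box (searched with CCGCCC for the other strand), which 42.6% of 35116 promoter windows of the same length also held. The window held 0 matches to CAGGTG or CACCTG, the E-box that SNAIL and ZEB proteins are known to bind, which 17.5% of the windows held. Among the other genes with a window, ZEB1 held such matches 57, 85 and 242 bases before its annotated starts. The windows of TWIST2, ZEB2 and CDH2 held 0. CDH1, SNAI1, SNAI2, SNAI3 and TWIST1 had no window to search. The GC content of the VIM window was 46%.

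The genes around the EMT factors and their targets were counted in lists, to be read against the share of all tested genes that rose and fell, 28.8% and 22.4% in 253J, 24.0% and 18.5% in J82, 27.4% and 20.2% in RT112 and 32.0% and 22.1% in TCCSUP. Of 22 mesenchymal genes, 19 fell and 1 rose in TCCSUP, with a median log2 fold change of -3.36 against 0.20 over all tested genes. The smooth muscle gene TAGLN went there from 375 to 9.84 CPM (-5.25), and THY1, a surface protein of fibroblasts, fell as well (-2.06). THY1 rose from 0 counts in RT112, to 4.50 and 4.65 CPM (at least 45.8-fold higher), and in 253J (at least 2.97-fold higher). In TCCSUP, VIM rose while 19 of the 22 genes fell. TGFBI, an extracellular matrix protein induced by TGF-beta, fell in all 4 lines, from -0.75 in J82 to -2.44 in 253J. RT112 had 10 of the 22 higher and 3 lower (median 0.84), J82 4 and 8 (median -0.16), and 253J 6 and 8 (median 0.10, or -0.04 with genes at 0 control counts at their bound). FN1, fibronectin and the most abundant of the list, rose in J82 (1.79) and RT112 (0.79), fell in TCCSUP (-1.31) and was not called in 253J (-0.16).

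Of 22 epithelial junction and identity genes, 11 rose and 2 fell in J82, 10 rose and 6 fell in TCCSUP, 8 rose and 4 fell in RT112, and 5 rose and 5 fell in 253J. The counts in RT112 and 253J lay near the shares of all tested genes. These were 27.4% higher and 20.2% lower in RT112 and 28.8% and 22.4% in 253J. The medians, with such genes at their bound, were 0.59 in J82, 0.28 in TCCSUP, 0.18 in RT112 and 0 in 253J. The polarity genes CRB3 and LLGL2 rose in all 4 lines, LLGL2 by 0.86 to 1.79. Treated CRB3 was at 35.7 and 32.4 CPM in RT112 and at or under 1.19 CPM in the other lines. PKP3, a desmosome plaque protein, fell in all 4, by a log2 fold change of -1.54 in 253J to -2.68 in TCCSUP. ESRP1, a splicing regulator of epithelial cells, had 0 counts in the J82 controls and 3.86 CPM with CM-1758, at least 34.6-fold higher. It rose also in TCCSUP, where CDH1 was not called, from 0.0574 to 0.825 CPM (ratio 14.1, exact 95% counting interval 4.52 to 71.2), and was not called in RT112 (-0.35), where CDH1 rose. KRT18 followed CDH1 in direction in 253J (-1.60) and J82 (0.66), and fell in TCCSUP (-2.57), where CDH1 was not called. In RT112, where CDH1 rose, KRT18 was not called (0.19, adjusted p = 0.538, edgeR).

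Most of the other intermediate filament genes of mesenchymal, muscle and nerve cells, a list without keratins, rose. Of 7 tested of 9 listed, 6 rose in J82 and RT112 each and 5 in 253J and TCCSUP each, and 1 fell, SYNM in J82 (-1.14). At the bound, their medians were 4.01 in J82, 3.43 in RT112, 2.80 in 253J and 2.03 in TCCSUP. DES, NES, NEFL and NEFM, filaments of muscle and nerve cells, rose in all 4 lines. NEFM had at most 8 counts in the treated J82 and RT112 libraries. NES, nestin, went from 0.910 to 51.5 CPM in J82 (5.82) and from 3.54 to 38.1 CPM in RT112 (3.43). DES, desmin, had 0 counts in the 253J controls and 3.50 CPM with CM-1758, at least 31.4-fold higher. These genes rose also in J82, where VIM fell, and in 253J, where VIM was not called.

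Of 17 other cadherins, mostly of the classical type but with CDH13 among them, 14 were tested. Of these, 7 rose and 3 fell in J82, 7 and 1 in RT112, 6 and 2 in TCCSUP, 5 and 1 in 253J. Their medians at the bound were 1.40, 0.82, 0.27 and 0.67 in that order. Of all tested genes, 24.0% rose and 18.5% fell in J82 and 27.4% and 20.2% in RT112. The shares were 32.0% and 22.1% in TCCSUP and 28.8% and 22.4% in 253J. The lower count of cadherins in J82 and the higher count in 253J lay near these shares. CDH24, the highest by mean log2 CPM over all libraries, rose in J82 (1.58) and RT112 (0.84), while CDH8 fell in J82 (-1.35), RT112 (-1.11) and TCCSUP (-2.70). CDH15 and CDH18, cadherins of muscle and brain, rose in all 4 lines. Few counts lay behind CDH15 in 253J (0 to 7 and 11) and CDH18 in RT112 (0 to 12 and 5). CDH18 reached 25.1 CPM in TCCSUP (1.47) and 9.16 CPM in J82 (3.69). Among 7 catenins, the cytoplasmic partners of cadherins, CTNNB1 (beta-catenin) fell in all 4 lines within a narrow range, -0.60 in RT112 to -0.71 in TCCSUP. Of the 7, 4 rose and 3 fell in 253J, 3 and 2 in TCCSUP, 2 and 1 in J82 and 1 and 1 in RT112, with medians at the bound of 0.51, -0.32, 0 and 0.06. The catenin counts in J82 and TCCSUP lay near the shares of all tested genes. Beta-catenin fell in J82 and RT112, where CDH1 rose, and in 253J, where CDH1 fell. CTNNA1 (alpha-catenin), the highest by mean log2 CPM with CTNNB1 just below it, fell in 253J (-0.46) and was not called in the other lines (-0.32 to -0.03). CTNND2, a delta-catenin of nerve cells, rose in all 4, from 4.03 to 17.1 CPM in J82 (2.08).

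The corepressors that SNAIL and ZEB proteins recruit were expressed in all lines. Of 15, 9 fell and 2 rose in 253J (median -0.65), 7 and 2 in J82 (-0.15), 5 and 4 in RT112 (-0.10) and 4 and 3 in TCCSUP (-0.04). Of all tested genes 22.4%, 18.5%, 20.2% and 22.1% fell in that order of lines, and the count in TCCSUP lay near its share. CTBP1, a partner of ZEB proteins, fell by 0.73 in 253J to 1.48 in TCCSUP on the log2 scale, and AJUBA, a LIM-domain partner of SNAIL, by 1.06 in 253J to 1.90 in TCCSUP. RCOR1 rose in all 4 lines (0.33 to 0.80). KDM1A, the demethylase that RCOR1 binds, rose in J82 (1.03), RT112 (0.55) and TCCSUP (0.59) and fell in 253J (-0.39). Among 10 ligases and kinases that act on SNAIL protein, 4 rose and 0 fell in RT112, 3 and 1 in J82, 2 and 3 in 253J and 1 and 1 in TCCSUP, with medians of 0.01, 0.03, -0.07 and -0.01. Of all tested genes 27.4%, 24.0%, 28.8% and 32.0% rose in that order of lines. The counts of these 10 in J82 and 253J lay near the shares. GSK3B, a kinase that marks SNAIL for degradation, rose in 253J (0.89), J82 (1.29) and RT112 (1.21) and missed the threshold in TCCSUP (0.32, adjusted p = 0.0613, edgeR). CSNK1A1, the most abundant, fell in J82 (-0.38) and TCCSUP (-0.54). Of the 13 tested EMT factors outside the SNAI, TWIST and ZEB families, 6 rose and 1 fell in J82 (median 0.28), 4 and 0 in RT112 (0), 3 and 4 in TCCSUP (-0.26) and 2 and 4 in 253J (-0.38). The higher count in RT112 lay near its share of all tested genes. SOX4 was the most abundant and rose in J82 (2.21) and TCCSUP (1.61), and TCF4 rose in J82 (1.54) and in RT112, from 0 and 0.0678 CPM to 0.665 and 0.877 CPM (ratio 23.2, exact 95% counting interval 6.02 to 198), and fell in 253J (-0.77) and TCCSUP (-0.94). TCF3, another E-box binding factor, fell in J82 (-0.61) and TCCSUP (-1.20) and was not called in 253J (-0.33) or RT112 (-0.25).

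The 14 urothelial and epithelial markers moved both ways, with 5 higher and 5 lower in TCCSUP, 5 and 1 in J82, 3 and 3 in 253J and 1 and 5 in RT112. Their medians at the bound were 0, 0.18, 0 and -0.37. Of all tested genes, 32.0% rose and 22.1% fell in TCCSUP and 24.0% and 18.5% in J82. The shares were 28.8% and 22.4% in 253J and 27.4% and 20.2% in RT112. The marker counts in 253J and the higher count in TCCSUP lay near them. KRT20, a keratin of superficial urothelial cells, rose in all 4 lines, by 1.41 in RT112 and at least 84.5-fold in 253J, where the controls had 0 counts. In J82 it reached only 10 and 5 counts (0.358 and 0.169 CPM) from 0. KRT7 fell in J82, to 649 and 321 CPM (-1.82), and in RT112, to 1050.2 and 921 CPM (-0.91), and was not called in 253J (-0.52) or TCCSUP (-0.79). TP63 rose in 253J from 0.0724 and 0.153 CPM to 6.89 and 11.98 CPM (6.35) and in TCCSUP (2.10), and was not called in RT112 (-0.31).

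Markers of other cell types were summed in each library beside these results. The 5 fibroblast markers came to 1539 and 1442 CPM in the TCCSUP controls and to 275 and 245 CPM with CM-1758, led by LUM, and 4 of the 5 fell. In RT112 the sum was 1364 and 1330.4 CPM in control and 813 and 886 CPM after treatment, nearly all LUM, while PDGFRA and PDGFRB had 0 control counts and DCN was at 0.116 CPM. While the sum fell in RT112, 3 of the 5 rose and 1 fell (median 2.33 at the bound), with PDGFRB at 0.509 and 0.496 CPM after treatment, at least 5.03-fold higher. J82 had 109 and 102 CPM in control and 191 and 158 CPM with CM-1758, and 253J 0.398 and 0.153 CPM in control and 1.82 and 1.92 CPM after treatment, with 2 and 4 of the 5 called higher and 0 lower. Of all tested genes 24.0% rose in J82, 28.8% in 253J and 27.4% in RT112, and 22.1% fell in TCCSUP. The 5 endothelial markers came to 227 and 194 CPM in the TCCSUP controls and to 18.3 and 20.3 CPM with CM-1758, and PECAM1 was at 0.0383 CPM in control. TEK made nearly all of the control sum and went from 226 and 193 CPM to 12.7 and 14.0 CPM. VWF, the von Willebrand factor gene, rose there from 1.15 and 0.536 CPM to 3.71 and 3.90 CPM (log2 fold change 2.17) and also in 253J (3.47). Of the 5 markers, 2 rose and 1 fell in TCCSUP (median 2.17), 1 and 1 in 253J (0 at the bound), 1 and 0 in J82 (0.28 at the bound) and 0 and 0 in RT112. In the lines other than TCCSUP the endothelial sum was 2.79 to 15.98 CPM. The endothelial counts in TCCSUP and 253J lay near the shares of all tested genes. These were 32.0% higher and 22.1% lower in TCCSUP and 28.8% and 22.4% in 253J. Of the 3 immune markers tested, CD68 of macrophages rose in 253J (2.08) and fell in J82 (-1.92). PTPRC, the CD45 gene, rose in J82 from 0.0925 to 0.922 CPM (ratio 9.93, exact 95% counting interval 3.998 to 31.8) and fell in TCCSUP from 9.58 to 1.12 CPM (-3.10), and CD14 rose in RT112 from 0 to 1.16 CPM, at least 11.6-fold. CD3E of T cells had 0 counts in every control library. The part of these markers in the responses of the 10 genes was not tested.

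For each gene the 3 other genes with the most similar pattern were taken by Pearson correlation of log2 CPM over the 16 libraries, among 14202 genes with a mean log2 CPM above 0. The 16 libraries come from 4 lines and 2 treatments and are not independent points, so these values are a description and no p is given. CDH2 was followed most closely by FGFR1 (r = 0.993), CNN3 (0.988) and ZFHX4 (0.987), CDH1 by SH3TC1 (0.968), RBM47 (0.964) and GRB7 (0.952), and VIM by CPS1 (0.977), L3MBTL4 (0.975) and TRIM6 (0.962). For ZEB1 they were MPP1 (0.968), S1PR1 (0.966) and LYSMD2 (0.966), and for ZEB2 GNB4 (0.981), CHN1 (0.975) and BDNF (0.974). TWIST1 was like NREP (0.985), SRPX (0.975) and MPP6 (0.973), and TWIST2 like PROM2 (0.980), KRT13 (0.975) and UPK3B (0.968), genes of urothelium and other epithelia. SNAI2 was like HK1 (0.987), FOXO3B (0.985) and NLRP2 (0.981), SNAI3 like EAF2 (0.966), RALGPS1 (0.963) and GLCCI1 (0.957), and SNAI1 like LOC100421309 (0.937), LOC101928504 (0.933) and DOC2A (0.932).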

How the data were processed

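The authors deposited 1 table of counts, whole numbers per gene symbol without normalization that were taken here as read counts, from stranded total RNA libraries depleted of ribosomal RNA. The submitters' processing notes name HISAT2, StringTie and GRCh37 without versions, and the counting settings, and whether the values are rounded estimates, are not given in the sources used here. Every column was matched to a sample by its label, and 0 were left over. The 10 genes and the gene lists were chosen with earlier results of these data known. Genes were filtered with filterByExpr, scaled by TMM and fitted over all 8 groups in edgeR 4.0.16 (quasi-likelihood, R 4.3.3), with 1 contrast per line and Benjamini-Hochberg adjustment over the 21297 tested genes. CPM use TMM-scaled library sizes, and log2 CPM a prior count of 2. SE is the log2 fold change over the root of F. With 2 libraries per group the spread is shared across genes and groups (8 residual degrees of freedom). The fit was also run on simulated counts with large changes set in genes without low counts. That run does not bear on genes near 0 counts or on small changes.

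Where a group had 0 counts, the fold is a bound against 3 counts per library, and with 1 to 3 counts the ratio has an exact 95% interval, counting error only. Lengths per kb are unions of exons in the basic set of GENCODE v29. The named genes are the 10, the 3 most correlated with each, and from each list the highest by mean log2 CPM, the largest mean rise and fall among genes with a mean log2 CPM above 0 called in 2 or more lines, and genes called the same way in all 4 lines. PTPRC, CD14, KRT5, KRT8, KRT19, PPARG, FOXA1, GATA3, UPK1A, UPK1B, UPK2, UPK3A, PDGFRA, DCN, PECAM1, CD3E, the pseudogenes and the antisense and host transcripts fall outside it or were named as list members after their values were seen. Alternatives were RLE or library-size scaling, 7 small noncoding RNA genes left out, DESeq2 1.42.0, each line alone, other filters, a replicate block, adjusted p under 0.01, and each library left out. The summed level of the immune markers is not reported here.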

Additional observations from a re-analysis of the deposited data

Results flagged for a closer look

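The response to CM-1758 differed between the 4 lines for 8 of the 10 genes, by the F test of edgeR over the interaction of line and treatment with Benjamini-Hochberg adjustment. The adjusted p was 2.32e-08 for CDH2, 7.81e-08 for CDH1, 1.63e-06 for VIM and 1.21e-05 for ZEB2, each of which rose in at least 1 line and fell in another. For ZEB1 it was 2.30e-05, with rises in RT112 and J82. The value was 0.000167 for SNAI2 and 0.000395 for TWIST1, which went from 0 control counts to a detected level in 253J and RT112, respectively. SNAI1 rose in all lines by unequal amounts, from 2.33 in TCCSUP to 5.56 in RT112 (adjusted p = 0.0166, edgeR), a call lost with the replicate block (0.0543) and without RT112 control replicate 1 (0.111) or RT112 CM-1758 replicate 1 (0.0523).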

How the results depend on the processing

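The responses of single genes within each line were recomputed over 24 alternatives, not counting the adjusted p limit of 0.01. Of 910 such values, 904 kept their side of the threshold and, where called, their direction. A call was lost by 5 and gained by 1, and 0 called values reversed. The F tests between lines are not among these values and are given below. At an adjusted p under 0.01, 3 in place of 4 genes were higher in TCCSUP (without SNAI2) and 7 in place of 8 differed in response (without SNAI1). The other counts per line and the count by control level held. Counts of differing responses were lower in every pair of lines. CDH1 missed that limit for RT112 and TCCSUP (adjusted p = 0.0229, edgeR), as did the control level of ZEB1 for 253J and TCCSUP (adjusted p = 0.0458, edgeR). The numbers of genes higher and lower in each line stayed within 1.5 times of those reported, except that 1 gene (VIM) in place of 2 was lower in J82 without J82 CM-1758 replicate 3. Scaling by library size only raised the median log2 fold change of all tested genes (TCCSUP by 0.31, 253J by 0.27, RT112 and J82 by 0.15 each), raised the higher share of calls from 56.2% to 68.5% in 253J and from 59.1% to 73.9% in TCCSUP, and brought ZEB1 past the threshold in TCCSUP (0.57, adjusted p = 0.0249, edgeR). Under it the sign also turned for values that were not called, SNAI2 in RT112 (0.02), TWIST1 in 253J (0.04), CDH1 in TCCSUP (0.23) and VIM in 253J (0.13).

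Same-numbered control and treated libraries deviated from their group means with correlations of 0.0173 in TCCSUP to 0.218 in J82, and 253J shares 1 number only, so the numbers were not taken as pairs. With the replicate block, 7 in place of 8 genes differed in response between the lines (SNAI1 at an adjusted p of 0.0543, edgeR) and 9 in place of 10 in control level (TWIST2 at 0.0708, edgeR). TWIST2 also missed it with DESeq2 (adjusted p = 0.118), and SNAI1 without RT112 control replicate 1 (0.111) or RT112 CM-1758 replicate 1 (0.0523). ZEB2 in RT112 was 7.62 without RT112 control replicate 1, which leaves 0 control counts. Genes with 0 or few control counts, SNAI2 and SNAI3 in 253J among them, are limited by depth.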
